A study of Caenorhabditis elegans with 2 samples.

Results

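The study mapped SKN-1, the worm counterpart of the mammalian Nrf transcription factors, on chromatin by ChIP-seq, the sequencing of DNA that is precipitated with a protein. Its region lists are described here at the 5 superoxide dismutase genes and the 3 catalase genes of *Caenorhabditis elegans*. These 8 genes, of 19973 protein-coding genes on the nuclear chromosomes, were chosen by name, as the dismutase and catalase genes of the worm, and the rule used no measured value, although earlier results of these data were known. The worms were L4 larvae of strain OP342, genotype unc-119(ed3) III; wgIs342, in which an inserted transgene carries eGFP-tagged SKN-1. The labels name skn-1 as the antibody and do not name the promoter that drives the transgene. Both replicates carried this genotype, were taken from whole animals of mixed sex and received no labelled treatment, and they form 1 group of 2 biological replicates. Whole worms were used, so the tissue behind a region is unknown, and no untagged worms are among the 2 samples. A control experiment that the labels name is not analysed here. The genes sod-1, sod-5, ctl-1, ctl-2 and ctl-3 lie on chromosome II, sod-3 on X, sod-4 on III and sod-2 on I.

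Each value below comes from the authors' lists of regions on the ce11 assembly. The pooled list held 29768 regions and the list of each replicate held 30000, peaks and background together, so that being listed does not mark a region as bound. Regions were ranked within their list by the authors' signal value, with rank 1 the strongest. The scale of the signal is not stated, and the lists carry no read counts, so depth is unknown and no interval can be given for a rank. A region was counted for a gene when its summit, which at these genes was the middle of the region, fell in the gene body or up to 2000 bp upstream of the gene start. The adjacent catalase genes were also read as 1 locus, which gave 6 loci. With 1 group there is no comparison of conditions, and no test was made. The replicates are set side by side by rank, also as a percent of the list.

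Superoxide dismutases turn superoxide, a by-product of respiration, into oxygen and hydrogen peroxide, and catalases then break hydrogen peroxide down to water and oxygen. In *C. elegans*, sod-1 encodes the main cytosolic copper/zinc enzyme, sod-5 a minor cytosolic one and sod-4 an extracellular or membrane-bound one. The mitochondrial manganese enzymes come from sod-2, which is constitutive, and sod-3, which is inducible and widely used as a reporter of the FOXO factor DAF-16. The catalase genes stand in tandem, with ctl-1 encoding a cytosolic and ctl-2 a peroxisomal enzyme. SKN-1 is known for activating detoxification and antioxidant genes, and its binding site has a core of A or G followed by TCAT.

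The sequences on which the results turn are those of the strongest region, in ctl-2, of the stretches listed in the pooled list and in both replicates, at ctl-3, sod-4 and sod-3, and of the upstream stretches of sod-3 and sod-1. Each was read from the RefSeq sequence of the ce11 (WBcel235) assembly in the direction of its gene. In ctl-2, capitals mark bases covered by words of 36 bases that occur more than once in the genome. They mark the telomere hexamer in ctl-3, the SKN-1 core in sod-4, and the DAF-16 element GTAAACA, here on the opposite strand, upstream of sod-3. Of the 6 stretches, that of sod-4 is the 1 with an SKN-1 core.
ctl-2, exon and intron (chrII:14300794-14300994, minus strand): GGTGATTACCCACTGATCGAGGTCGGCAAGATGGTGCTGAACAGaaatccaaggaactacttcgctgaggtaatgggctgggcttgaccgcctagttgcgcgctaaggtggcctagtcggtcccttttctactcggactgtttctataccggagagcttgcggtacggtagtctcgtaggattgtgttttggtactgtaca
ctl-3, upstream (chrII:14311981-14312185, minus strand): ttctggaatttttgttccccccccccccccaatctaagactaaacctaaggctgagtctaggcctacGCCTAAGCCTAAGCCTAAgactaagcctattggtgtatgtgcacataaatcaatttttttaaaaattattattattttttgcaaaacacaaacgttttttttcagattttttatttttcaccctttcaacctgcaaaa
sod-4, upstream (chrIII:9500871-9500984, minus strand): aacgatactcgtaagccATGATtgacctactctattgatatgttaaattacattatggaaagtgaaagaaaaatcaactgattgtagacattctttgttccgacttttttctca
sod-3, intron (chrX:17093035-17093161, plus strand): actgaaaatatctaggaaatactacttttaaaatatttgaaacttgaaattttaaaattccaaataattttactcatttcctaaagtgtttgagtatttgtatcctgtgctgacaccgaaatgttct
sod-3, upstream (chrX:17092528-17092752, plus strand): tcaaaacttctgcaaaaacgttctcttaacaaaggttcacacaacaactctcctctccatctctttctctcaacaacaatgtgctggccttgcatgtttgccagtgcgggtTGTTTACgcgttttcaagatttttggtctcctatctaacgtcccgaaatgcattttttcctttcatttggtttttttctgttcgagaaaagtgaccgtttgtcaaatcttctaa
sod-1, upstream (chrII:6973991-6974230, minus strand): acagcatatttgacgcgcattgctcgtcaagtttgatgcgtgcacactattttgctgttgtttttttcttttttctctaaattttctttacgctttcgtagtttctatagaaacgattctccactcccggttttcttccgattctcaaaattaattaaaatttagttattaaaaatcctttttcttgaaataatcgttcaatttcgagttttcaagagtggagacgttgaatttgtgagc

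No thresholded peak lay at any of the 8 genes. In the same windows, 0.591% of all protein-coding genes had a peak of the authors' list thresholded on reproducibility. The weakest of those 97 peaks had a signal of 29.0, while the strongest region at the dismutase and catalase genes had a pooled signal of 13.3. Of the 8 genes, 7 had a pooled region of any strength, against 73.1% of all genes, and 6 had a region in both replicates, against 58.6%. A region among the 10000 strongest pooled regions was found at 1 of the 8 genes, ctl-2, against 37.9% of all genes, and the same gene was the 1 with a region among the 5000 strongest, against 22.5%. The members' shares for any region were thus near those of all genes.

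The windows held 12 pooled regions, of which 11 were weaker than rank 15000 and 8 weaker than rank 20000. Their density was 0.373 summits per kb over the 6 loci and 0.318 per kb over the windows of all genes, where a summit counts once for each window it lies in. In replicate 1 the densities were 0.279 per kb at the 6 loci and 0.319 per kb over all genes, and in replicate 2 they were 0.342 and 0.319 per kb. Over the 7 genes with a pooled region the median rank of the strongest region was 19823, and over the 14609 genes of the genome with one it was 9539. In replicate 1 the medians were 11180 over the members with a region and 9511 over all genes with one, and in replicate 2 they were 14195 and 9357. The gap seen in the pooled list was thus smaller in each replicate. The strongest region of ctl-2 was outranked by the strongest region of 20.9% of all genes, and those of the other 6 genes by 52.7% to 68.1%.

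**Figure D1:**
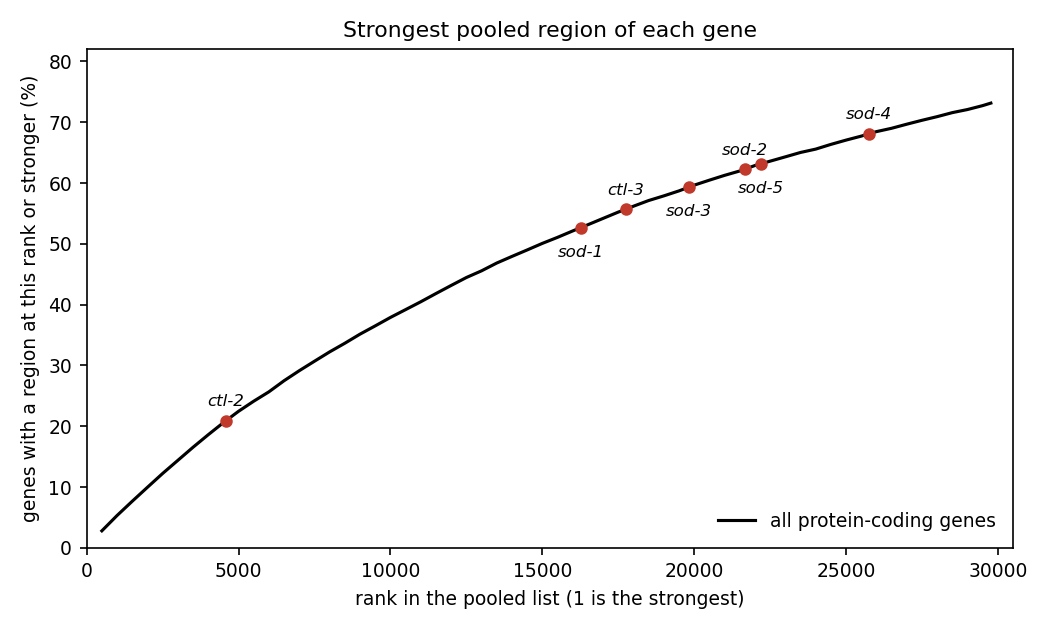
Share of all 19973 protein-coding genes (y axis, percent) whose strongest pooled region has the rank on the x axis or a stronger one; points mark 7 of the 8 genes. The ctl-2 gene stands at rank 4589 and the other 6 between 16277 and 25747; ctl-1 has no region and is not drawn.

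The cytosolic copper/zinc gene sod-1 (WBGene00004930, chrII:6972706-6973887, minus strand) had a region over its upstream stretch in 1 replicate. In the pooled list this region (chrII:6973957-6974346) had its summit 265 bp upstream of the start, in intergenic sequence, with a signal of 9.22 and rank 16277. Replicate 1 listed a region there with its summit 224 bp upstream at rank 6112 (20.4% of the list), and replicate 2 listed none that overlapped it. The only region of replicate 2 in the window lay 1940 bp upstream, at rank 25427. A second pooled region, in a coding exon 398 bp downstream of the start, ranked 25524 and overlapped no region of either replicate. Both pooled summits also fell in the upstream window of the neighbouring gene art-1. The replicates therefore shared no position at sod-1.

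The minor cytosolic gene sod-5 (WBGene00007036, chrII:4417633-4419130, plus strand) had weak regions in every list. The pooled region lay in a coding exon 1169 bp downstream of the start, with a signal of 8.09 and rank 22187, and it was shared with the window of bpnt-1. Replicate 2 had a region at the same place, 1163 bp downstream, at rank 23802. The region of replicate 1 lay in an intron, centred 402 bp past the start, at rank 28112. These ranks fall at 93.7% of the list in replicate 1 and 79.3% in replicate 2.

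The extracellular enzyme's gene sod-4 (WBGene00004933, chrIII:9496884-9500375, minus strand) had an upstream region in each of the 3 lists, and the 3 regions overlapped. The pooled region (chrIII:9500595-9500984) had its summit 415 bp upstream, in intergenic sequence that lay in the window of no other gene, with a signal of 7.55 and rank 25747. Replicate 2 placed it 422 bp upstream at rank 7846, and replicate 1 placed it 616 bp upstream at rank 24700. The 3 regions had a stretch of 114 bp in common, while their strength differed. The region stood at 26.2% of the list in replicate 2 and at 82.3% in replicate 1. Replicate 1 had its stronger regions inside the gene, at rank 10685 in a coding exon 919 bp downstream and at rank 11005 in an intron 2577 bp downstream. No pooled region and no region of replicate 2 overlapped either of them.

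The inducible mitochondrial gene sod-3 (WBGene00004932, chrX:17092753-17094306, plus strand) had the most regions of the 8 genes over the 3 lists together, with 3 pooled, 2 in replicate 1 and 5 in replicate 2. Its start lies inside the 5′ end of the oppositely oriented gene C08A9.3, so every summit at sod-3 also fell in the window of C08A9.3. The strongest pooled region was centred 1413 bp upstream, in a coding exon of C08A9.3, with a signal of 8.52 and rank 19823. It overlapped a region of replicate 1 centred 1544 bp upstream (rank 11675) and another of replicate 2 centred 1199 bp upstream (rank 7478), which did not overlap each other. Nearer to the start, the pooled region 148 bp upstream ranked 26000, and replicate 2 had a region 27 bp upstream at rank 18654. Replicate 1 listed none there. Inside the gene, the pooled region 415 bp downstream, in an intron of both genes, ranked 26904 and was met by replicate 1 at rank 27573 and by replicate 2 at ranks 10382 and 24103. Replicate 2 also had a region in the 3′ UTR, at rank 21170. All of these regions were weak in the pooled list, where the 3 ranks lay between 66.6% and 90.4% of the list.

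The constitutive mitochondrial gene sod-2 (WBGene00004931, chrI:8434550-8435807, plus strand) had no region in replicate 1. It lies inside the larger gene dpt-1, whose window shared its regions. The pooled region was centred 587 bp past the start, in an intron of both genes, with a signal of 8.18 and rank 21666, and it overlapped no region of either replicate. Replicate 2 had a region centred 166 bp upstream at rank 24740. A stronger region lay just outside the 2000 bp limit, 2334 bp upstream and in a coding exon of dpt-1. It ranked 797 in replicate 1 and 15863 in the pooled list, and replicate 2 listed no region that overlapped it. Just inside the limit, the farthest upstream summit at any of the 8 genes was that of sod-1 in replicate 2, 1940 bp upstream.

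**Figure D2:**
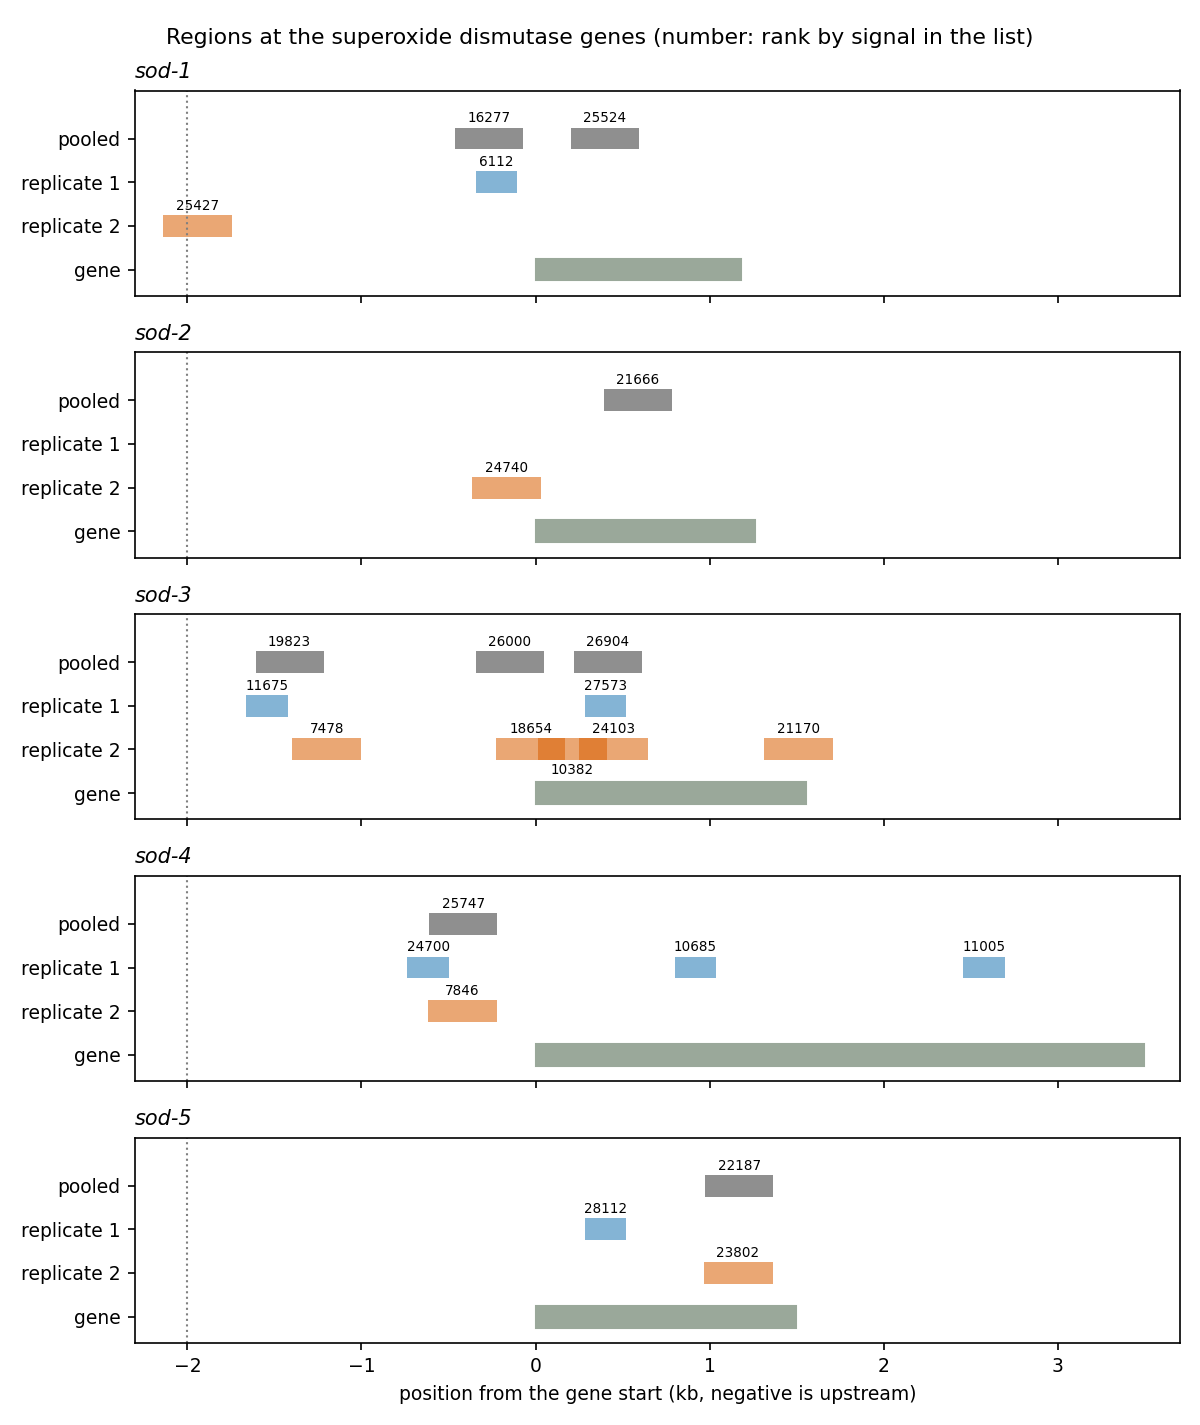
Regions at the 5 superoxide dismutase genes by position from the gene start (x axis, kb, gene direction left to right), with 1 row for each list and the gene body below; widths are those of the regions, numbers are ranks within the list, and the dotted line is the 2000 bp limit. The lists meet at 1 position at sod-4 and inside sod-3, and at different positions at sod-1.

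The catalase locus held the strongest region of the 8 genes, inside ctl-2 (WBGene00000831, chrII:14299556-14302027, minus strand), the peroxisomal catalase gene. The pooled region (chrII:14300701-14301090) had its summit in an intron, 1131 bp past the start, with a signal of 13.3 and rank 4589 (15.4% of the list). Replicate 2 had it 1137 bp downstream at rank 2014 (6.71%), with a signal of 9.91 on the scale of that list. Replicate 1 had no region that overlapped it. A weaker pooled region overlapped it on the upstream side, 888 bp downstream of the start, at rank 28977. Of the replicate lists, only that of replicate 2 thus held the strongest region at ctl-2. What the reads of replicate 1 added to its pooled signal is unknown.

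Replicate 1 had its own strongest region of the 8 genes in ctl-2 at another place. It was centred 2387 bp downstream of the start, in the 3′ UTR, at rank 4680 (15.6%), with a signal of 7.26 on the scale of that list. The pooled list had a region there at rank 25594, and replicate 2 had none. The gene is therefore counted among those with a region in both replicates, and is the 1 of the 8 with a region among the 5000 strongest of each replicate, although the replicates' regions do not overlap.

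The gene at the other end of the locus, ctl-3 (WBGene00013220, chrII:14307798-14310779, minus strand), had a region at the same upstream position in all 3 lists. The pooled region (chrII:14311796-14312185) was centred 1212 bp upstream, in intergenic sequence, with a signal of 8.91 and rank 17740. Replicate 2 had it 1217 bp upstream at rank 14195, and replicate 1 had it 1322 bp upstream at rank 20581. Among the 12 pooled regions, those at ctl-3 and sod-4 and the intronic one at sod-3 were the 3 with a stretch common to all 3 lists, and the ctl-3 region was the strongest of the 3 in the pooled list. The cytosolic catalase gene ctl-1 (WBGene00000830, chrII:14303568-14306260, minus strand) had no region in any list.

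Most of the catalase locus is present in more than 1 copy, and no listed region lay in the repeated stretch over ctl-1. Of the words of 36 bases that start in the ctl-1 body, 0.188% occur once in the genome, and of those in the 2000 bp upstream of ctl-1 and of ctl-2, 0%. The median protein-coding gene had 100% in its body. In the ctl-3 body the share was 17.9% and in the ctl-2 body 81.0%, while the 2000 bp upstream of ctl-3 had 96.3%. A stretch from chrII:14301497-14306103, which covers the start of ctl-2, the upstream sequence of ctl-2 and most of ctl-1, recurs 4233 bp further along the chromosome, with 4243 words of 36 bases matched at that distance. The coding sequences of ctl-1 and ctl-3 were 94.3% identical, those of ctl-1 and ctl-2 82.1% and those of ctl-2 and ctl-3 76.9%.

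**Figure D3:**
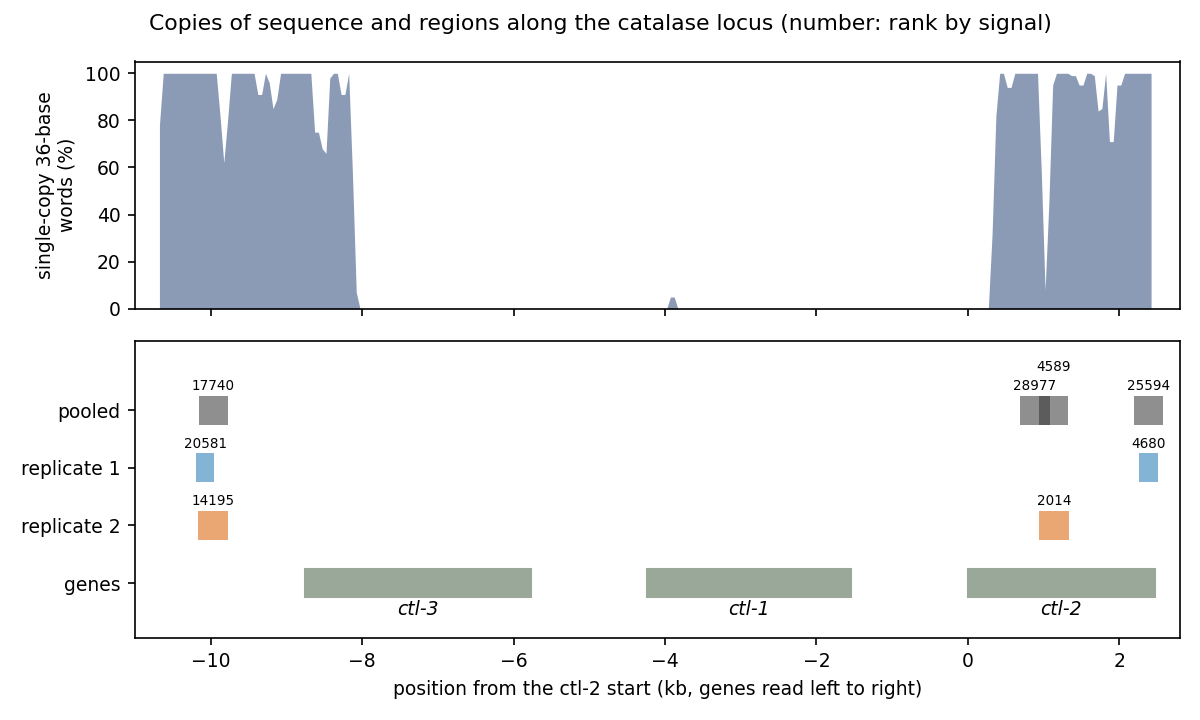
Catalase locus by position from the ctl-2 start (x axis, kb, gene direction left to right): above, the share of words of 36 bases that occur once in the genome (percent, over 100 starts); below, regions of each list with their rank, and the 3 gene bodies. The pooled regions lie at ctl-2 and upstream of ctl-3, and none lies in the repeated stretch over ctl-1 between them.

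Genes with little single-copy sequence had few regions across the whole genome. Of 198 protein-coding genes with under 10% single-copy words in their window, ctl-1 (0.107%) among them, 3 had a pooled region (1.52%). Of 299 genes between 10% and 50%, which include ctl-2 (44.5%) and ctl-3 (49.6%), 58 had one (19.4%). Of 16475 genes with 90% or more, which include sod-1, sod-3, sod-4 and sod-5, 12751 had one (77.4%). Of 3001 genes from 50% to under 90%, sod-2 (71.4%) among them, 1797 had one (59.9%). The 2000 bp upstream of sod-2 stood at 53.0%. How the authors treated reads that fit several places is not stated in the labels or file headers. The part of repeated sequence in the absence of regions at ctl-1 was not tested. The strongest region, in ctl-2, holds 97 of 355 words that are not single-copy, and these occur 3 times each, in a coding exon that ctl-1 and ctl-3 also carry. The intron part of the sequence shown above for ctl-2 is in lower case throughout. The pooled region upstream of ctl-3 (rank 17740) holds 38 of 355 words that are not single-copy, and these occur 2 times each. The pooled regions of the dismutase genes consist of single-copy words only.

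The SKN-1 site was searched on both strands as A or T, A or T, T, A or G, then TCAT, which contains the core. Of the 12 pooled regions, 2 held it at most 100 bp from the summit, both in ctl-2 (ranks 25594 and 28977), against 9.35% of all pooled regions. Over the whole region it was found in 4 of 12, the 3 of ctl-2 and that of ctl-3, against 17.8% of all. The overlapping ctl-2 regions share 1 match, in coding sequence. Upstream of the starts, 3 of 8 genes had the site within 2000 bp (sod-2, sod-4 and ctl-3), against 66.2% of all genes. The core alone was present at most 100 bp from the summit in 7 of 12 regions, against 56.2% of all pooled regions, and in the 2000 bp upstream of 8 of 8 genes, against 99.8% of all genes.

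The DAF-16 element GTAAACA, searched on both strands, lay within 2000 bp upstream of 3 of the 8 genes, against 23.0% of all genes. At sod-3 it stood 374 and 111 bp upstream of the start, at sod-2 140 and 103 bp upstream and at sod-5 143 bp upstream. The match 111 bp upstream of sod-3 is the one in capitals above and lies inside the pooled region of rank 26000 and the replicate 2 region of rank 18654. Both matches at sod-2 lie inside the replicate 2 region of rank 24740, which also holds 1 SKN-1 site 354 bp upstream. A match describes letters in a window and not a bound site.

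The replicates gave different orders of the genes. By pooled rank the order was ctl-2, sod-1, ctl-3, sod-3, sod-2, sod-5 and sod-4. In replicate 1 ctl-2 (15.6% of the list) was followed by sod-1 (20.4%), sod-4 (35.6%), sod-3 (38.9%), ctl-3 (68.6%) and sod-5 (93.7%). In replicate 2 ctl-2 (6.71%) was followed by sod-3 (24.9%), sod-4 (26.2%), ctl-3 (47.3%), sod-5 (79.3%), sod-2 (82.5%) and sod-1 (84.8%). The gene ctl-2 stood first in each list, while sod-1 was the second gene in replicate 1 and the last in replicate 2. The genes sod-1, sod-3 and sod-4 changed places between the replicates and are not ordered beyond that spread, while ctl-3 stood ahead of sod-5 in all 3 lists. Of the 12 pooled regions, 6 overlapped a region of replicate 1, 8 one of replicate 2 and 4 both, against 54.1%, 60.6% and 28.9% of the whole pooled list. In 2 of the 12 there was no overlap with either replicate, against 14.2% of the whole pooled list. Among pooled regions no stronger than the strongest of the members, 49.6% overlapped replicate 1, 56.2% replicate 2, 22.4% both and 16.6% neither. The 12 pooled regions lay upstream of the start in 5 cases and inside the gene in 7. Their median GC content was 38.2%, against 37.2% for the whole pooled list.

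The other genes of peroxide chemistry that were listed for comparison included some with stronger regions. The first list held 11 genes for the removal of peroxides (3 peroxiredoxins and 8 of the glutathione peroxidase family). Of these, 8 had a pooled region, against 73.1% of all genes, and 6 had one in both replicates, against 58.6%. A region among the 5000 strongest was found at 2 of the 11, against 22.5% of all genes. The 2 genes were gpx-4 (rank 3910, centred 1469 bp upstream) and the peroxiredoxin gene prdx-2 (rank 3915, in a coding exon 921 bp downstream). The prdx-2 window held its strongest region at 0.783% of the list in replicate 1 and at 56.5% in replicate 2. For gpx-4 these were 10.1% and 58.5%. Both genes thus ranked far higher in replicate 1 than in replicate 2.

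The second list held 7 genes for sources of superoxide and peroxide (dual oxidases, respiratory chain subunits and a ubiquinone synthesis enzyme). Of these, 7 had a pooled region, against 73.1% of all genes, and 6 had one in both replicates, against 58.6%. A region among the 5000 strongest was found at 3 of the 7, against 22.5% of all genes. At mev-1, which encodes the cytochrome b subunit of succinate dehydrogenase, a region 140 bp upstream ranked 388 in the pooled list (signal 21.9). The strongest regions anywhere in the mev-1 window ranked 157 in replicate 1 and 5690 in replicate 2, and their overlap with the pooled region was not examined. The pooled summit also lay in the windows of ced-9, jmjd-4 and T07C4.12. At clk-1, for ubiquinone synthesis, a region 619 bp upstream, in a coding exon of toc-1, ranked 519, while the strongest regions in the replicates ranked 15726 and 12483. At isp-1, for the iron-sulphur subunit of complex III, a region 617 bp upstream, in an intron of islo-1, ranked 1618, and the replicates' strongest ranked 10520 and 6934. The lists are short and were not tested against one another.

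**Figure D4:**
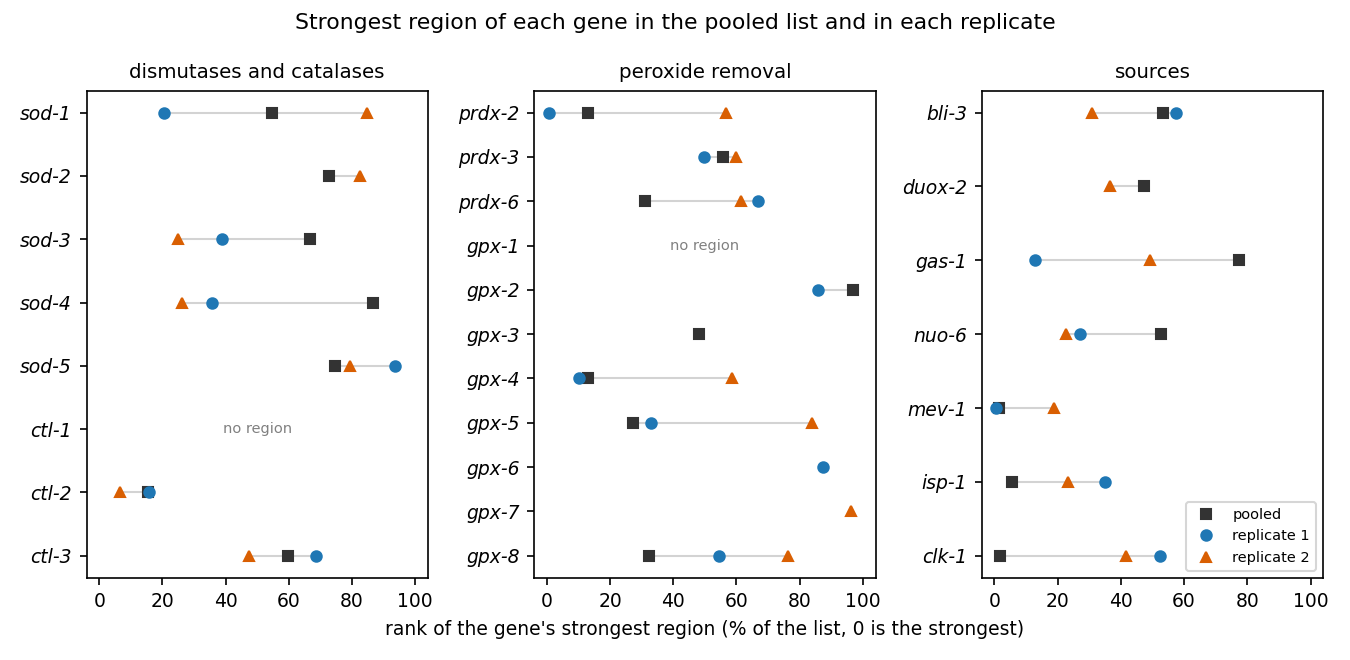
Rank of each gene's strongest region as a percent of the list (x axis, 0 is the strongest) in the pooled list (squares), replicate 1 (circles) and replicate 2 (triangles), for the 8 dismutase and catalase genes, 11 peroxide removal genes and 7 source genes. A missing symbol means no region in that list. Of the 8 genes on the left, ctl-2 lies at or under 15.6% in all 3 lists, while mev-1 on the right lies at or under 19.0%.

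Genes with ranks most like those of ctl-2 were sought by the sum of the absolute differences of log10 rank over the 3 lists, among 10620 other genes with a region in each. The nearest was ZK185.5 (ranks 4960, 4656 and 2059 in the pooled list, replicate 1 and replicate 2; summed difference 0.0456). The next were trap-3 and sec-61.B, which shared the same ranks (4933, 4472 and 2120; summed difference 0.0734).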

How the data were processed

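The samples were 2 biological replicates of 1 group, mapped from the labels. Per the labels' file listing, the authors made narrowPeak lists of peaks with background regions from the replicates' alignments and a further file that is not described but also enters the control-normalised tracks, for each replicate and for the pooled replicates, and a list thresholded on the irreproducible discovery rate. Caller, aligner and settings: not given in the sources used here. Ranks within each list come from the deposited signal value (column 7). An alternative rank used the −log10 q-value deposited in column 9, and column 8 held -1 in every row. The 4 ce11 lists were used; ce10 lists were not used, because the genome at hand is ce11 (WBcel235, the same assembly) and no coordinates were converted.

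Summits were assigned to genes of Ensembl release 115. All protein-coding genes outside the mitochondrial genome served as background. Words of 36 and 50 bases were counted over both strands of the RefSeq genome. The longest coding sequences were aligned globally with Biopython 1.88. Scripts used Python 3.11.15, numpy 2.4.6, pandas 2.3.3 and matplotlib 3.10.9, and window assignment, word counts and letter search were tested on simulated data. No test compares groups, and region lists without read counts leave precision unknown.

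The genes and lists were chosen with earlier results of these data known. Named genes are the 8 members, neighbours whose windows hold a region described, genes of the 2 comparison lists with a pooled region among the 5000 strongest, and the 3 genes most like the member with the strongest region. The telomere hexamer was searched after the sequence had been seen. Alternatives tried were narrower windows, overlap in place of summits, stricter ranks, single replicates and other word and search lengths.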

Additional observations from a re-analysis of the deposited data

How the results depend on the processing

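The 7 genes with a pooled region became 6 with 1000 or 500 bp upstream and remained 7 in number by overlap of at least 1 bp. They became 3 in a window that ran 1000 bp upstream and 500 bp downstream from the start. They also became 3 when a pooled region had to overlap both replicates. The shares of all genes in those settings are not given here. Among the 10000 or the 5000 strongest regions the genes numbered 1, against 37.9% and 22.5% of all genes. Among the 1000 strongest they numbered 0, against 5.31% of all genes. Without a replicate, the list of the other replicate was read in place of the pooled list. The members with a region then numbered 7 in the list of replicate 2, against 73.9% of all genes. In the list of replicate 1 they numbered 6, against 73.6% of all genes. The 6 genes with a region in both replicates became 4 with 1000 bp upstream, and 1 among the 10000 or the 5000 strongest. The shares of all genes under these settings are not given here. The 12 pooled regions became 10 with 1000 bp upstream and remained 12 in number by overlap of at least 1 bp. The windows held 9 regions of the replicate 1 list and 11 of the replicate 2 list. The median percent rank of the strongest region over the 6 loci was 69.7% in the pooled list and 52.7% without replicate 1. Without replicate 2 it was 35.6% over 5 loci, as sod-2 had no region in replicate 1. The median over all genes with a region was 32.0% in the pooled list, 31.7% in replicate 1 and 31.2% in replicate 2. By column 9 the median over the 6 loci was 69.4%. That alternative was chosen after seeing the data because column 8 gave no rank. At sod-3 the strongest pooled region moved to 87.3% with 1000 bp upstream. The SKN-1 site lay in 2 regions near the summit and in 4 over whole regions. Single-copy words made up 68.7% of the 6 loci, and 70.2% with words of 50 bases. The cause of these shifts was not tested, and a stricter limit leaves fewer regions by construction. Depth is unknown, and regions of 240 bp in replicate 1 and 396 bp in replicate 2 limit how finely positions can be compared. No paired analysis was possible because there is 1 group.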

Other observations

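The stretch upstream of ctl-3 that all 3 lists share holds a run of the hexamer TTAGGC, the repeat unit of *C. elegans* telomeres, on the strand opposite to the gene. The pooled region of rank 17740 held it 3 times, in capitals in the sequence printed for ctl-3. None of these copies lay within 100 bp of the pooled summit, where 4.84% of all pooled regions held the hexamer. The shares that follow are for whole regions. At least 1 copy was present in 8.96% of all pooled regions and at least 3 in 0.870%. The hexamer was looked for after the sequence had been seen.

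The nearest of the 1000 strongest pooled regions lay outside the window of each of the 6 loci. These regions were looked up after the values were seen. The distances for other genes were not measured, so the loci cannot be called close to strong regions. The nearest of the 1000 strongest pooled regions to the catalase locus was 2980 bp beyond its window, in the window of Y54G11A.7, at rank 999 (rank 6822 in replicate 1 and 2759 in replicate 2). For sod-5 it was 7649 bp away in a coding exon of ZK430.5, at rank 232, where replicate 2 had rank 65 and replicate 1 had no region. For sod-1 it was 21132 bp away in the 5′ UTR of ceh-38, at rank 70, with rank 264 in replicate 1 and 48 in replicate 2; this was also the nearest thresholded peak. For the other loci the distance was 17941 bp (sod-4), 34776 bp (sod-3) and 93732 bp (sod-2). Apart from sod-1, the nearest thresholded peak lay from 117016 bp (sod-4) to 2197000 bp (the catalase locus) beyond the window.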
